A study of Mus musculus with 9 samples.

Results

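The genes described here are 67 transcripts that stood higher in mouse CD4+ T cells carrying NFAT2-CARIT than in cells carrying NFAT2-CA or a control vector. They were chosen from the group means of the deposited expression values, in CPM (a gene's reads after scaling all libraries to one total). A member had a mean of at least 10 CPM with NFAT2-CARIT, at least 1.5 times the Control mean and at least 1.6 times the NFAT2-CA mean. Of 16500 genes listed, 8549 reached the level and 80 met all the conditions. From these 80, 13 were left out by name, which leaves 67. Because these values chose the genes, everything that sets NFAT2-CARIT against either other group is a description with no test. A difference between NFAT2-CA and Control is no condition of the rule, but the rule used the means of both groups. Its tests, run across all genes, are therefore not independent of the choice, and counts of members they call are descriptions.

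The study sequenced RNA, as paired ends, from retrovirally transduced CD4+ T cells taken from C57BL/6 mice, with 3 libraries in each of 3 groups. The NFAT2-CARIT group carried a constitutively active NFAT2 whose contact with AP-1 is impaired, the NFAT2-CA group the constitutively active form with that contact intact, and the Control group a control vector. All groups keep their own Nfatc1 gene, which encodes NFAT2, and the NFAT2 forms are overexpressed from vectors. The labels do not state that libraries of a group came from different mice or cultures, so each p-value here reflects only how far these libraries spread.

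NFAT proteins are transcription factors held in the cytoplasm by phosphorylation. Calcium entry after T cell receptor engagement activates the phosphatase calcineurin, which strips the phosphates and lets NFAT enter the nucleus. On many cytokine promoters NFAT binds side by side with AP-1, the dimer of Fos and Jun proteins, and NFAT without AP-1 is known in T cells from programs of anergy and exhaustion.

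Sequencing depth ran between 19947800 and 38189000 reads, so that 10 CPM stands for 199 to 382 reads. Nfatc1 itself had 240.5, 245 and 253 CPM with NFAT2-CARIT, 342, 336 and 395 CPM with NFAT2-CA, against 224, 228 and 188 CPM in Control, and the files do not tell whether vector reads are part of these values. All 8 CD4 T cell markers were present, with summed levels of 6329 to 6423 CPM with NFAT2-CARIT, 6606 to 7048 CPM with NFAT2-CA and 5548 to 5681 CPM in Control. Among markers of other cells, 5 of 10 myeloid genes were listed, with sums of 10.2 to 12.9 CPM with NFAT2-CARIT, 11 to 14.6 CPM with NFAT2-CA and 11.9 to 13.6 CPM in Control. Within that sum Itgam had 0.916 to 1.70 CPM with NFAT2-CARIT, 0.632 to 0.796 CPM with NFAT2-CA and 6.83 to 9.29 CPM in Control. H2-Eb1 had 6.89 to 8.82 CPM with NFAT2-CARIT, 8.60 to 11.8 CPM with NFAT2-CA and 3.65 to 4.83 CPM in Control. Itgax was highest with NFAT2-CARIT, at 0.681 to 1.35 CPM, against at most 0.112 CPM with NFAT2-CA and 0.0946 CPM in Control. Cd14 had 0.351 to 0.707 CPM with NFAT2-CARIT, 0.781 to 1.05 CPM with NFAT2-CA and at most 0.0851 CPM in Control. H2-Aa had 0.288 to 0.852 CPM with NFAT2-CARIT, 0.669 to 0.880 CPM with NFAT2-CA and 0.255 to 0.750 CPM in Control. The 3 of 6 B cell genes listed, nearly all of it Ighm, summed to 182 to 204 CPM with NFAT2-CARIT, 206 to 211 CPM with NFAT2-CA and 411 to 422 CPM in Control. Both CD8 genes together had 22.6 to 24.0 CPM with NFAT2-CARIT, 28.4 to 30.8 CPM with NFAT2-CA and 12.5 to 13.7 CPM in Control, and 2 of 5 NK cell genes had 16.7 to 17.8 CPM with NFAT2-CARIT, 12.9 to 17.8 CPM with NFAT2-CA and 15.9 to 21.4 CPM in Control. Of the stromal and endothelial genes 3 of 5 were listed, at 123.5 to 136 CPM with NFAT2-CARIT, 151 to 165 CPM with NFAT2-CA and 163 to 178 CPM in Control, of the mast cell and basophil genes 1 of 5, and of the erythroid and platelet genes 0 of 5. The part of other cells in the results was not tested, and in such bulk libraries fewer cells of a type and less RNA per cell cannot be told apart.

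Every one of the 67 genes had all its NFAT2-CARIT libraries above all 6 other libraries, which the thresholds of the rule favour (14% of the 9233 tested genes do so). For 53 of them the libraries fell in the order NFAT2-CARIT, NFAT2-CA, Control with no overlap. That order held for 10% of tested genes, but for 924 of the 1295 tested genes with every NFAT2-CARIT library above all others. NFAT2-CA and Control libraries overlapped for 11 genes, and for 3 (Isg20, Hip1r and Snx10) every NFAT2-CA library was below every Control library. The ratio of the NFAT2-CARIT mean to the NFAT2-CA mean had a median of 1.86, from 1.602 for Pask to 5.56 for Ggt1. The NFAT2-CARIT libraries were close to each other, with a median coefficient of variation of 5.19%, from 0.80% for Rnf43 to 22.6% for 1810009J06Rik.

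**Figure D1:**
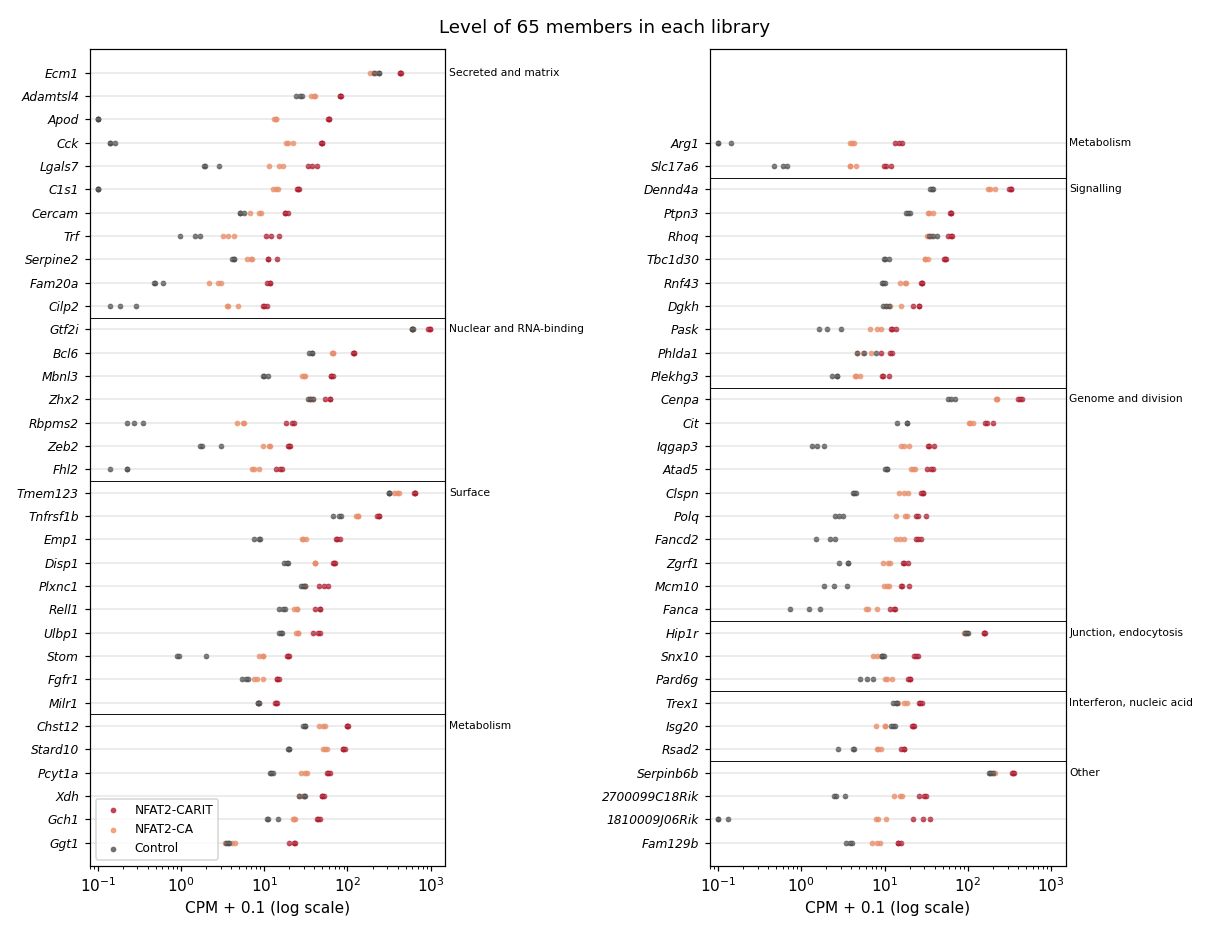
Level of 65 of the 67 genes in each of the 9 libraries, in CPM + 0.1 on a log axis, grouped by the role of the product, with 1 point per library of NFAT2-CARIT, NFAT2-CA and Control. NFAT2-CARIT points lie to the right of all others in every row, and in 51 rows the NFAT2-CA points lie between the other groups without overlap.

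The name under which these genes were set apart, genes induced selectively by NFAT2-CARIT, does not cover all of their pattern, since for 53 of the 67 every NFAT2-CA library was also above every Control library. This held for 32.1% of all tested genes, and for 924 of the 1295 with every NFAT2-CARIT library above all others. Nothing particular to the members is therefore read from the 53. With limma on log2(CPM + 1), 50 of the 63 members that could be tested were higher with NFAT2-CA than in Control (79.4%), against 31.6% of all 9233 genes tested. Lower with NFAT2-CA were 2 members, Isg20 and Ecm1, against 40.5% of all tested genes, and 11 did not pass the adjusted p of 0.05, while 72% of all tested genes passed in either direction. The rule asked for 1.5 times the Control level with NFAT2-CARIT and the shares of all tested genes carry no such condition, so nothing is read from the gap between them. The same applies to the counts by filter, Control level or role given below. The median log2 fold change of the members, NFAT2-CA over Control, was 1.05, while that of all tested genes was -0.07. On the same scale the medians were 2.12 for NFAT2-CARIT over Control (all tested genes -0.09) and 0.84 for NFAT2-CARIT over NFAT2-CA (all tested genes -0.02), which the choice of genes set. In 6 members each Control library had no more than 0.128 CPM, which is 3 reads in the shallowest of them. With these set to a floor of 3 reads there, the medians against Control stay at 1.05 and 2.12. All 6 lay well above both medians, so this could not have moved them. If Control is placed at 0% and NFAT2-CARIT at 100% of the span between their means, NFAT2-CA stood at a median of 34.3%, from -34.7% for Isg20 to 57.9% for Polq.

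The filter on low values asks for 10 CPM in at least 3 libraries, and 21 of the 63 tested members passed it only through their NFAT2-CARIT libraries. They entered the test through the group where they were chosen to be high, and include Zeb2, Rbpms2, Fhl2, Cercam, Trf, Serpine2, Fam20a, Stom, Fgfr1, Milr1, Pask, Ggt1, Arg1, Snx10, Zgrf1, Mcm10, Fanca, Rsad2, Fam129b and 1810009J06Rik. Of the 21, 18 were higher with NFAT2-CA than in Control and 3 did not pass. The other 42 held 32 higher (76.2%), 2 lower and 8 not past, some having reached the filter through NFAT2-CA. Among the 26 members with every Control library at 10 CPM or more, 17 were higher with NFAT2-CA than in Control, 2 lower and 7 not past. Beside each of these counts stand 31.6% higher and 40.5% lower over all tested genes. Not tested were Slc17a6, Cilp2, Phlda1 and Plekhg3. At an FDR under 0.05 the authors' deposited table had 46 of the 67 higher with NFAT2-CA than in Control, against 11.4% of its genes, and 0 lower, where 21.9% of its genes passed in either direction.

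**Figure D2:**
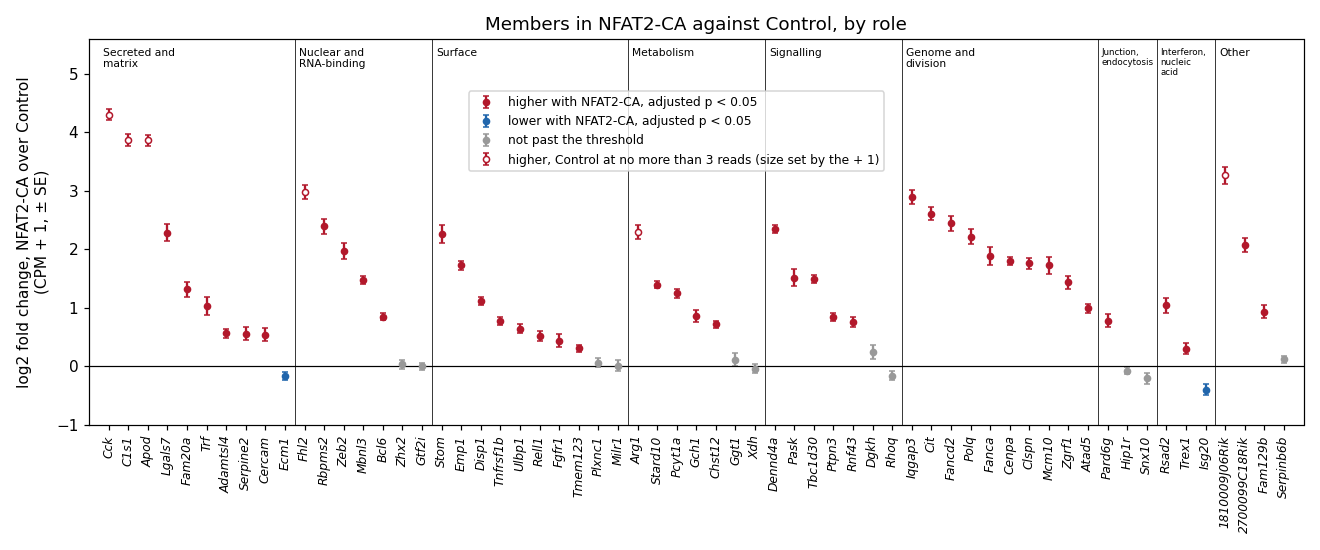
Log2 fold change of NFAT2-CA over Control (log2 of CPM + 1, bars ± SE, 3 libraries a group) for 61 of the 63 tested genes, by role and then by size. Red points are higher with NFAT2-CA, blue points lower and grey points not past the adjusted p of 0.05. Open points mark genes with no more than 0.128 CPM (3 reads in the shallowest Control library) in each Control library, whose size depends on the added 1. The legend's 3 reads does not hold for Fhl2 in Control replicate 2 (0.126 CPM, where 3 reads are 0.0945 CPM). All 10 genome and division genes are red (31.6% of all tested genes were higher), while Ecm1 and Isg20 are blue.

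The nuclear and RNA-binding members numbered 8, and 6 of them were higher with NFAT2-CA than in Control, beside 31.6% of all tested genes. Bcl6, the transcriptional repressor that drives follicular helper cells, had 117, 119 and 121 CPM with NFAT2-CARIT, 66.9, 66.9 and 64.4 CPM with NFAT2-CA, against 36.97, 37.6 and 34.2 CPM in Control. No libraries overlapped, and the log2 fold change of NFAT2-CA over Control was 0.85 ± 0.06 (SE, adjusted p = 1.2e-09, limma). Zeb2, an E-box repressor known from terminally differentiated effector cells, had 20.1, 19.7 and 19.2 CPM with NFAT2-CARIT, 11.2, 9.51 and 11.7 CPM with NFAT2-CA, against 2.89, 1.57 and 1.67 CPM in Control. Its Control libraries were all low, and NFAT2-CA over Control was 1.98 ± 0.14 on the log2 scale (adjusted p = 2.2e-09), in a test it entered through its NFAT2-CARIT libraries only.

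Mbnl3, an X-linked splicing regulator of the muscleblind family, averaged 64.0 ± 2.13 CPM with NFAT2-CARIT, 29.7 ± 1.20 CPM with NFAT2-CA and 10.1 ± 0.71 CPM in Control (SD, n = 3 each). Rbpms2, another RNA-binding gene, had 22.6, 21.5 and 18.1 CPM with NFAT2-CARIT, 5.47, 5.66 and 4.55 CPM with NFAT2-CA, against 0.17, 0.126 and 0.25 CPM in Control. Of the 50-base stretches of Rbpms2 transcripts 12.4% also occur in other genes. Fhl2, a LIM domain cofactor, averaged 15.2 ± 1.30 CPM with NFAT2-CARIT and 7.72 ± 0.775 CPM with NFAT2-CA, against 0.127, 0.126 and 0.0417 CPM in Control.

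Gtf2i and Zhx2 did not pass the test of NFAT2-CA against Control. Gtf2i, which encodes the transcription factor TFII-I, had 918, 984 and 978 CPM with NFAT2-CARIT, 591, 612 and 592 CPM with NFAT2-CA, against 604, 598 and 597 CPM in Control. NFAT2-CA and Control libraries overlapped, and their log2 fold change lay between -0.11 and 0.10 (estimate ± 2 SE, adjusted p = 0.96, limma). Zhx2, a zinc finger and homeobox repressor, averaged 59.0 ± 4.22 CPM with NFAT2-CARIT, 36.8 ± 1.33 CPM with NFAT2-CA and 36.0 ± 2.41 CPM in Control, with an interval of -0.11 to 0.17 for NFAT2-CA over Control. Both sat near the edge of the choice and met the rule in 5 (Gtf2i) and 6 (Zhx2) of the 9 sets that leave out a library.

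Secreted and matrix proteins were encoded by 11 members, and 9 were higher with NFAT2-CA than in Control, beside 31.6% of all tested genes. Of the others 1 was lower, beside 40.5% of all tested genes, and 1 was not tested. Apod, the lipid carrier apolipoprotein D, had 60.3, 58.6 and 59.1 CPM with NFAT2-CARIT and 13.9, 13.7 and 13.1 CPM with NFAT2-CA, and was listed at 0 in each Control library. Taking 3 reads in the shallowest Control library (0.128 CPM) as the floor, Apod was at least 465-fold higher with NFAT2-CARIT and at least 106-fold higher with NFAT2-CA than in Control. C1s1, a complement protease gene, was also listed at 0 in each Control library and had 25.8, 24.6 and 25.6 CPM with NFAT2-CARIT and 14.4, 12.7 and 13.8 CPM with NFAT2-CA. It was at least 199-fold higher with NFAT2-CARIT and at least 107-fold higher with NFAT2-CA than that floor. Of the 50-base stretches of C1s1 transcripts 35.1% also occur in other genes, chiefly its relative C1s2, so the division of reads between them is uncertain.

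Cck, the gut and brain peptide cholecystokinin, had 49.6, 47.7 and 49.4 CPM with NFAT2-CARIT, 19.0, 22.0 and 18.3 CPM with NFAT2-CA and at most 0.063 CPM in Control, which is within 3 reads. Lgals7, which encodes the epithelial galectin 7, had 42.4, 37.1 and 33.6 CPM with NFAT2-CARIT, 14.8, 16.8 and 11.5 CPM with NFAT2-CA, against 1.87, 1.80 and 2.79 CPM in Control. The groups were apart for both genes, and Lgals7 was higher with NFAT2-CA than in Control by 2.29 ± 0.14 on the log2 scale (adjusted p = 9.8e-10, limma). Fam20a, a pseudokinase of the secretory pathway known from enamel, averaged 11.3 ± 0.589 CPM with NFAT2-CARIT, 2.56 ± 0.429 CPM with NFAT2-CA and 0.421 ± 0.0724 CPM in Control. Trf, the iron carrier transferrin, averaged 12.5 ± 2.16 CPM with NFAT2-CARIT, 3.63 ± 0.579 CPM with NFAT2-CA and 1.28 ± 0.356 CPM in Control, and Serpine2, the inhibitor protease nexin 1, averaged 12.05 ± 1.67 CPM with NFAT2-CARIT, 6.66 ± 0.488 CPM with NFAT2-CA and 4.19 ± 0.168 CPM in Control.

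For Fam20a, Trf and Serpine2, NFAT2-CA was higher than Control by 1.32 ± 0.13, 1.03 ± 0.15 and 0.56 ± 0.11 on the log2 scale, but quantile normalization turned the sign of each (-0.23, -0.22 and -0.0021). In Trf 59.4% of the 50-base stretches recur in other transcripts, so its level is uncertain. Cercam averaged 18.02 ± 0.969 CPM with NFAT2-CARIT, 8.08 ± 1.21 CPM with NFAT2-CA and 5.20 ± 0.355 CPM in Control. Its log2 fold change of NFAT2-CA over Control was 0.54 ± 0.11 (adjusted p = 0.00035, limma), but 0.14 (adjusted p = 0.34) under quantile normalization. Like Fam20a, Trf and Serpine2, Cercam entered the test through its NFAT2-CARIT libraries only. Cilp2, a cartilage matrix gene that was not tested, had 9.45, 10.8 and 9.87 CPM with NFAT2-CARIT, 3.53, 4.73 and 3.50 CPM with NFAT2-CA, against 0.085, 0.189 and 0.0417 CPM in Control.

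Ecm1 and Adamtsl4, both matrix proteins, are the one pair of members whose starts lie within 100 kb of each other. They sit on the minus strand of chromosome 3 (Ecm1 at 95734147 to 95739569 and Adamtsl4 at 95676201 to 95687917, mm10), with starts 51.7 kb apart. Ecm1, which encodes extracellular matrix protein 1, had 439, 429 and 432 CPM with NFAT2-CARIT, 218, 210.0 and 185 CPM with NFAT2-CA, against 239, 237 and 208 CPM in Control. Adamtsl4, an ADAMTS-like microfibril protein, had 80.6, 81.7 and 84.2 CPM with NFAT2-CARIT, 41.0, 36.7 and 39.5 CPM with NFAT2-CA, against 26.9, 28.0 and 23.7 CPM in Control. The ratios of NFAT2-CARIT to NFAT2-CA were 2.12 for Ecm1 and 2.10 for Adamtsl4, yet the genes differed in the other comparison. On the log2 scale NFAT2-CA over Control gave -0.16 ± 0.07 for Ecm1 (adjusted p = 0.049, limma), with overlapping libraries, and 0.56 ± 0.07 for Adamtsl4 (adjusted p = 2.5e-06). Among the fits that leave out a library, the Ecm1 call held without Control replicate 3 or NFAT2-CA replicate 1 and was lost without any other (adjusted p = 0.056 to 0.25, limma), and it did not pass in the authors' deposited table (FDR 0.34).

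Other tested genes near the pair differed less between the vectors. They are not members, and the rule chose the pair for this ratio, so nothing local is read from the gap. The log2 fold changes of NFAT2-CARIT over NFAT2-CA were -0.03 for Mcl1, 0.21 for Tars2 and -0.07 for Rprd2, all with starts within 100 kb of that of Ecm1, and Tars2 alone of the 3 passed the test (adjusted p = 0.0069, limma). The 250 bases before the RefSeq start of each gene are given because these 2 members lie close to each other. They lie at chr3:95739570-95739819 for Ecm1 and chr3:95687918-95688167 for Adamtsl4 (RefSeq, GRCm38.p6), written on the minus strand that both genes use. The capitals in Ecm1 mark an AP-1 motif that starts 64 bases before the gene, and the Adamtsl4 window holds neither that motif nor the NFAT motif.
Ecm1: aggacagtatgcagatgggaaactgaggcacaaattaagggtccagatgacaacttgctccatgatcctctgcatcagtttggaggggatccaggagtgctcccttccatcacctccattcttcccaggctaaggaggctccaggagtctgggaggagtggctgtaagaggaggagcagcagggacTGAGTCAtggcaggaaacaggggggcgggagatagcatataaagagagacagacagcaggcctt
Adamtsl4: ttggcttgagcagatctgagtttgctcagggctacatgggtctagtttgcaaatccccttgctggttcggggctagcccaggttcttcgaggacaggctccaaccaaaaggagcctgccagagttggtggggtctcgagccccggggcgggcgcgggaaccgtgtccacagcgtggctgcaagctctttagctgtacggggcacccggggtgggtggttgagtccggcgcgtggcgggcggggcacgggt

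**Figure D3:**
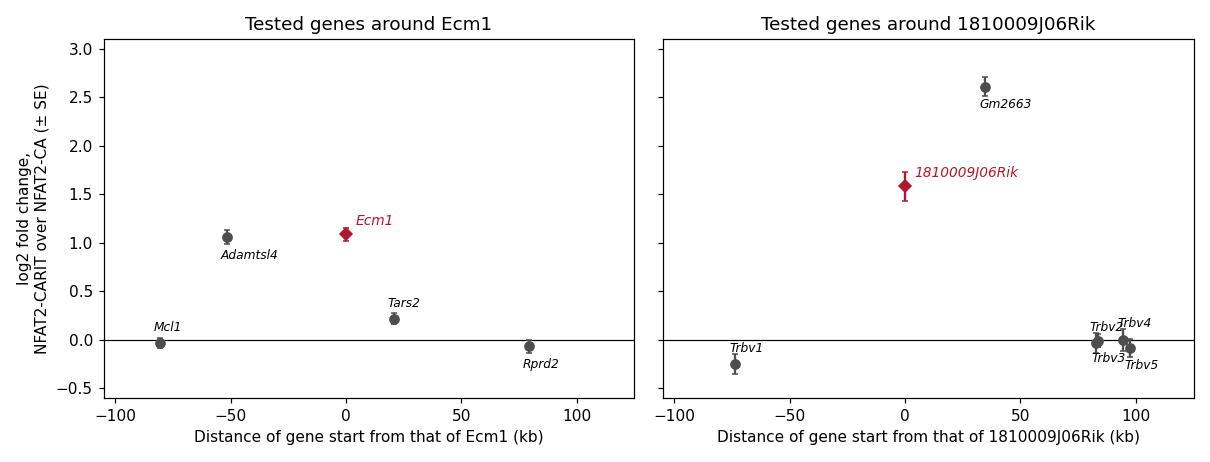
Log2 fold change of NFAT2-CARIT over NFAT2-CA (± SE, 3 libraries a group) of the tested genes around Ecm1 and around 1810009J06Rik, against the distance of their starts in kb, with the member as a red diamond. Adamtsl4 lies beside Ecm1 at 1.05 while Mcl1, Tars2 and Rprd2 lie between -0.07 and 0.21, and Gm2663 lies above 1810009J06Rik at 2.61. Ecm1, Adamtsl4 and 1810009J06Rik were chosen for this ratio.

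The motifs searched, on both strands of the 250 bases before and 50 bases after each RefSeq start, were TGGAAA for NFAT and TGANTCA for AP-1. Promoters were at hand for 52 of the 67 members. The NFAT motif was in 9 of them (17.3%), against 16.7% of all 10558 promoters in the table and 15.4% of those of tested genes. The AP-1 motif was in 3 (5.77%), those of Ecm1, Emp1 and Rsad2, against 4.88% of all promoters. Emp1 alone held both of these strings, a share of 1.92% against 0.871%. Other forms of either site were not searched. The members' shares of the other motifs, beside those of all promoters, were 5.77% and 12.1% for the CRE core TGACGT, 5.77% and 9.98% for the E-box CACGTG, 30.8% and 28.9% for the Egr core GGGGGCG, and 7.69% and 7.24% for the TATA box TATAAA. A match is a string of letters, not an occupied site.

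Emp1 and Apod are shown as the member with both motifs and as the member with the NFAT motif that was listed at 0 in Control. The windows are chr6:135362681-135362930 on the plus strand for Emp1 and chr16:31314809-31315058 on the minus strand for Apod (RefSeq, GRCm38.p6), with NFAT and AP-1 motifs in capitals on the strand of the gene. In Emp1 the NFAT motif, read from the other strand, begins 167 bases before the start and the AP-1 motifs 145 and 25 bases before it. The RefSeq start of Emp1 lies 386 bases inside the gene as the files list it.
Emp1: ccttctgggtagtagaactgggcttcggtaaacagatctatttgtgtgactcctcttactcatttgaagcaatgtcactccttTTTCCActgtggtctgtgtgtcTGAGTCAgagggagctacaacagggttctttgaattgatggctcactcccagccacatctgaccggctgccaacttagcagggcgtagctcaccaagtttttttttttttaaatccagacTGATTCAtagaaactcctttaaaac
Apod: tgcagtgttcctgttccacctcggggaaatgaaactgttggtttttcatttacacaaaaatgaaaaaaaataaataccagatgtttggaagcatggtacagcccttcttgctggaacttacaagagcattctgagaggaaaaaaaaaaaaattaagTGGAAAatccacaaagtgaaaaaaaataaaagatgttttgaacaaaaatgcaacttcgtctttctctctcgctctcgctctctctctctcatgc

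Of the 10 surface members 8 were higher with NFAT2-CA than in Control, beside 31.6% of all tested genes, and 2 did not pass. Emp1, a tetraspan epithelial membrane protein, had 75.6, 80.9 and 72.7 CPM with NFAT2-CARIT, 29.4, 31.5 and 28.1 CPM with NFAT2-CA, against 8.54, 7.53 and 8.71 CPM in Control. The groups were far apart, with NFAT2-CA above Control by 1.73 ± 0.08 on the log2 scale (adjusted p = 5.9e-12, limma). Tnfrsf1b, the TNF receptor prominent on regulatory and effector T cells, had 238, 241 and 229 CPM with NFAT2-CARIT, 128, 133 and 133 CPM with NFAT2-CA, against 79.6, 83.8 and 67.1 CPM in Control (0.77 ± 0.07 for NFAT2-CA over Control, adjusted p = 5.7e-08). Tmem123, which encodes the membrane mucin porimin, had 653, 634 and 646 CPM with NFAT2-CARIT, 421, 392 and 359.7 CPM with NFAT2-CA, against 318, 311 and 313 CPM in Control. Its NFAT2-CA libraries spread more than those of the other groups and were still all above Control (0.31 ± 0.06, adjusted p = 0.0002).

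Stom, the membrane scaffold stomatin, had 19.0, 19.7 and 18.8 CPM with NFAT2-CARIT, 9.44, 9.59 and 8.56 CPM with NFAT2-CA, against 0.85, 1.89 and 0.792 CPM in Control. Its log2 fold change of NFAT2-CA over Control was 2.26 ± 0.15, in a test it entered through its NFAT2-CARIT libraries only. Disp1, needed for release of Hedgehog ligands, averaged 69.0 ± 2.74 CPM with NFAT2-CARIT, 40.6 ± 0.543 CPM with NFAT2-CA and 18.3 ± 1.07 CPM in Control. Ulbp1, a ligand of the NKG2D receptor, averaged 42.9 ± 4.29 CPM with NFAT2-CARIT, 24.9 ± 0.935 CPM with NFAT2-CA and 15.6 ± 0.651 CPM in Control. Rell1, a relative of TNF receptors, and the growth factor receptor gene Fgfr1 were higher with NFAT2-CA by 0.52 ± 0.08 and 0.44 ± 0.11, though neither passed in the authors' deposited table (FDR 0.12 and 0.50), and under quantile normalization Fgfr1 was at 0.12 (adjusted p = 0.40, limma).

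Plxnc1 and Milr1 were the surface genes that did not pass. Plxnc1, a receptor for semaphorin 7A, had 45.3, 51.6 and 57.8 CPM with NFAT2-CARIT, 31.0, 30.5 and 29.9 CPM with NFAT2-CA, against 30.9, 29.2 and 27.5 CPM in Control, and the interval for NFAT2-CA over Control was -0.10 to 0.22 on the log2 scale. Milr1, an inhibitory receptor described on mouse mast cells, had 13.7, 14.2 and 13.3 CPM with NFAT2-CARIT, 8.33, 8.67 and 8.47 CPM with NFAT2-CA, against 8.67, 8.25 and 8.33 CPM in Control, an interval of -0.16 to 0.19. Libraries of NFAT2-CA and Control overlapped for both. Kit, the 1 mast cell marker listed, had 3.57 to 3.81 CPM with NFAT2-CARIT, 0.928 to 1.13 CPM with NFAT2-CA and 2.25 to 2.85 CPM in Control, and its part in the Milr1 values was not tested.

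Signalling genes numbered 9, with 5 higher with NFAT2-CA than in Control (31.6% of all tested genes), 2 not past and 2 not tested. Dennd4a, an activator of Rab GTPases, had 312, 329 and 330.5 CPM with NFAT2-CARIT, 186, 174 and 214 CPM with NFAT2-CA, against 35.1, 38.0 and 36.7 CPM in Control. NFAT2-CA was far above Control here (2.35 ± 0.07, adjusted p = 4e-14, limma). Rnf43, the ubiquitin ligase that removes Wnt receptors, had 27.8, 27.4 and 27.8 CPM with NFAT2-CARIT, 17.5, 15.2 and 17.8 CPM with NFAT2-CA, against 10.0, 9.54 and 9.12 CPM in Control (0.75 ± 0.08). The tyrosine phosphatase gene Ptpn3, the Rab regulator Tbc1d30 and the PAS kinase gene Pask were higher by 0.84 ± 0.07, 1.49 ± 0.07 and 1.51 ± 0.15.

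Dgkh encodes a diacylglycerol kinase, a class that turns off the signal upstream of Ras and AP-1. It had 21.6, 26.0 and 26.2 CPM with NFAT2-CARIT, 10.3, 11.6 and 15.6 CPM with NFAT2-CA, against 10.2, 11.2 and 9.37 CPM in Control. NFAT2-CA and Control overlapped and the difference of 0.24 ± 0.13 did not pass (adjusted p = 0.095), although it did without NFAT2-CA replicate 1 (0.37, adjusted p = 0.022). Rhoq, a small GTPase of vesicle traffic, averaged 61.6 ± 3.24 CPM with NFAT2-CARIT, 34.1 ± 2.00 CPM with NFAT2-CA and 38.4 ± 3.79 CPM in Control. Its value for NFAT2-CA over Control was -0.16 ± 0.08 (adjusted p = 0.071), but it passed as lower without Control replicate 3 (-0.23, adjusted p = 0.0093) and with TMM factors (-0.18, adjusted p = 0.046). Phlda1 had 11.5, 9.06 and 12.03 CPM with NFAT2-CARIT, 6.80, 5.40 and 4.596 CPM with NFAT2-CA, against 7.69, 4.50 and 5.50 CPM in Control, and 29.3% of its 50-base stretches recur elsewhere. Plekhg3 averaged 10.0 ± 1.09 CPM with NFAT2-CARIT, 4.62 ± 0.357 CPM with NFAT2-CA and 2.46 ± 0.219 CPM in Control.

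Of the 4 members of cell junctions and endocytosis, 2 were higher with NFAT2-CA than in Control (31.6% of all tested genes) and 2 did not pass. Pard6g, a polarity adaptor, had 18.9, 19.9 and 19.99 CPM with NFAT2-CARIT, 10.1, 10.7 and 12.2 CPM with NFAT2-CA, against 6.03, 7.09 and 5 CPM in Control. No libraries overlapped, and NFAT2-CA was above Control by 0.78 ± 0.11 on the log2 scale (adjusted p = 1.1e-05, limma; FDR 0.093 in the authors' deposited table). Snx10, a sorting nexin of endosomes, had 25.1, 23.8 and 22.4 CPM with NFAT2-CARIT, 7.96, 7.12 and 8.94 CPM with NFAT2-CA, against 9.14, 9.23 and 9.75 CPM in Control. Every NFAT2-CA library was below every Control library, at -0.21 ± 0.10 (adjusted p = 0.061), but it passed as lower without NFAT2-CA replicate 3 (-0.28, adjusted p = 0.019), with TMM factors (-0.22, adjusted p = 0.048) and with quantile normalization (-0.34, adjusted p = 0.011). Hip1r, which links clathrin to actin, had 155, 157 and 163 CPM with NFAT2-CARIT, 91.5, 92.5 and 89.99 CPM with NFAT2-CA, against 96.4, 99.7 and 92.6 CPM in Control, with an interval of -0.18 to 0.03 for NFAT2-CA over Control. Of its 50-base stretches 12.2% also occur in other genes, chiefly the overlapping Vps37b. Vps37b averaged 390 CPM with NFAT2-CARIT, 311 CPM with NFAT2-CA and 323 CPM in Control, and its part in the Hip1r values was not tested.

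Metabolic enzymes and transporters numbered 8, with 5 higher with NFAT2-CA than in Control, beside 31.6% of all tested genes. Of the others 2 were not past (Ggt1 and Xdh) and 1 was not tested. Ggt1, the gamma-glutamyl transferase that breaks down extracellular glutathione, had 23.1, 22.4 and 19.7 CPM with NFAT2-CARIT, 4.05, 3.31 and 4.34 CPM with NFAT2-CA, against 3.53, 3.72 and 3.33 CPM in Control. It had the largest ratio of NFAT2-CARIT to NFAT2-CA of all members, 5.56, while NFAT2-CA and Control overlapped (0.11 ± 0.11, adjusted p = 0.39, limma). Under quantile normalization that value turned to -0.76 (adjusted p = 0.00014). Xdh, the purine-degrading xanthine oxidoreductase, averaged 50.3 ± 2.19 CPM with NFAT2-CARIT, 28.2 ± 1.81 CPM with NFAT2-CA and 29.1 ± 2.50 CPM in Control, with an interval of -0.20 to 0.11 for NFAT2-CA over Control.

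Gch1, which makes the first step towards tetrahydrobiopterin, had 44.5, 42.7 and 47.2 CPM with NFAT2-CARIT, 22.1, 23.1 and 22.4 CPM with NFAT2-CA, against 10.7, 10.9 and 14.7 CPM in Control (0.86 ± 0.10 for NFAT2-CA over Control, adjusted p = 8e-07). Arg1, the arginine-degrading enzyme, had 15.0, 13.3 and 15.9 CPM with NFAT2-CARIT, 4.02, 4.15 and 3.79 CPM with NFAT2-CA and no more than 0.0417 CPM in Control, which is within 3 reads. Pcyt1a, which controls phosphatidylcholine synthesis, averaged 58.7 ± 2.32 CPM with NFAT2-CARIT, 30.1 ± 2.27 CPM with NFAT2-CA and 12.1 ± 0.456 CPM in Control. Stard10, a phospholipid transfer gene, and Chst12, a chondroitin sulfotransferase gene, were higher with NFAT2-CA than in Control by 1.40 ± 0.06 and 0.71 ± 0.07. Slc17a6, the vesicular glutamate transporter of neurons, had 10.3, 11.9 and 9.72 CPM with NFAT2-CARIT, 4.42, 3.73 and 3.79 CPM with NFAT2-CA, against 0.51, 0.567 and 0.375 CPM in Control.

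All 10 members of DNA replication, repair and cell division were higher with NFAT2-CA than in Control, beside 31.6% of all tested genes. Of them, 3 (Zgrf1, Mcm10 and Fanca) entered the test through NFAT2-CARIT libraries only. Nothing is read from this count, since the rule asked for a level above Control with NFAT2-CARIT. NFAT2-CA lay 44.3% to 57.9% of the way up to NFAT2-CARIT, a position that the rule caps, so nothing is read from it. Cenpa, the histone H3 variant of centromeres, had 417, 404 and 442 CPM with NFAT2-CARIT, 226, 217 and 221 CPM with NFAT2-CA, against 57.4, 62.3 and 69.2 CPM in Control. NFAT2-CA exceeded Control by 1.80 ± 0.07 on the log2 scale (adjusted p = 5.6e-13, limma). Cit, the kinase of the cytokinetic ring, had 161, 169 and 198 CPM with NFAT2-CARIT, 115, 103 and 107 CPM with NFAT2-CA, against 18.7, 18.4 and 13.8 CPM in Control (2.61 ± 0.10, adjusted p = 4.1e-11). Iqgap3, a cytoskeletal scaffold of dividing cells, had 33.9, 33.5 and 39.1 CPM with NFAT2-CARIT, 19.7, 15.8 and 17.2 CPM with NFAT2-CA, against 1.23, 1.80 and 1.46 CPM in Control, the largest rise of these 10 (2.90 ± 0.11, adjusted p = 1.1e-12).

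The repair genes in this group were Fancd2 and Fanca of the Fanconi anaemia pathway, Polq, the polymerase of theta-mediated end joining, and the helicase gene Zgrf1. Fancd2 had 25.0, 27.3 and 23.7 CPM with NFAT2-CARIT, 17.0, 13.6 and 15.3 CPM with NFAT2-CA, against 2.46, 2.14 and 1.42 CPM in Control. Polq had 23.5, 24.8 and 31.4 CPM with NFAT2-CARIT, 17.4, 13.7 and 18.6 CPM with NFAT2-CA, against 2.76, 2.46 and 3.04 CPM in Control. Both were higher with NFAT2-CA, by 2.45 ± 0.13 (adjusted p = 4.9e-11) for Fancd2 and 2.22 ± 0.13 (adjusted p = 1.5e-10) for Polq. Atad5, which unloads the sliding clamp, Clspn, the checkpoint mediator claspin, and Mcm10, a replication initiation factor, were higher by 0.99 ± 0.08, 1.76 ± 0.10 and 1.73 ± 0.15, and Fanca and Zgrf1 by 1.89 ± 0.16 and 1.43 ± 0.11. In 7 of the 10 genes NFAT2-CARIT replicate 3, the shallowest library, was the highest, and 7 of the 11 secreted genes were highest in NFAT2-CARIT replicate 1. Other roles leaned too, with 5 of 8 nuclear genes highest in replicate 1. Over all 67 members, 23 were highest in replicate 1, 19 in replicate 2 and 25 in replicate 3. These roles were picked after the values were seen, and nothing is read from them.

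A list of 42 other replication, repair and mitosis genes was drawn up after the members' values had been seen. Of the 37 tested, 34 were higher with NFAT2-CA than in Control, beside 31.6% of all tested genes. Lower were 2 (Mcm2 and Fancm), beside 40.5% of all tested genes, and 1 was not past. Against Control, 35 were higher with NFAT2-CARIT and 0 lower, beside 32.1% higher among all tested genes. Between the vectors, 23 were higher with NFAT2-CARIT than with NFAT2-CA, 0 lower and 14 not past, beside 15.1% of all tested genes. Their median log2 fold change of NFAT2-CARIT over NFAT2-CA was 0.26, while the 10 members, chosen for that ratio, had 0.70. Mcm5, a subunit of the replicative helicase, averaged 72.3 ± 3.95 CPM with NFAT2-CARIT, 49.4 ± 3.34 CPM with NFAT2-CA and 15.5 ± 0.57 CPM in Control. Brca1 averaged 53.2 ± 2.19 CPM with NFAT2-CARIT, 39.6 ± 0.546 CPM with NFAT2-CA and 10.8 ± 0.956 CPM in Control. Both lay above the list median between the vectors (0.54 and 0.415). Pcna, among the 14 not past (-0.03), averaged 38.7 ± 2.98 CPM with NFAT2-CARIT, 39.6 ± 1.04 CPM with NFAT2-CA and 27.4 ± 2.15 CPM in Control.

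**Figure D4:**
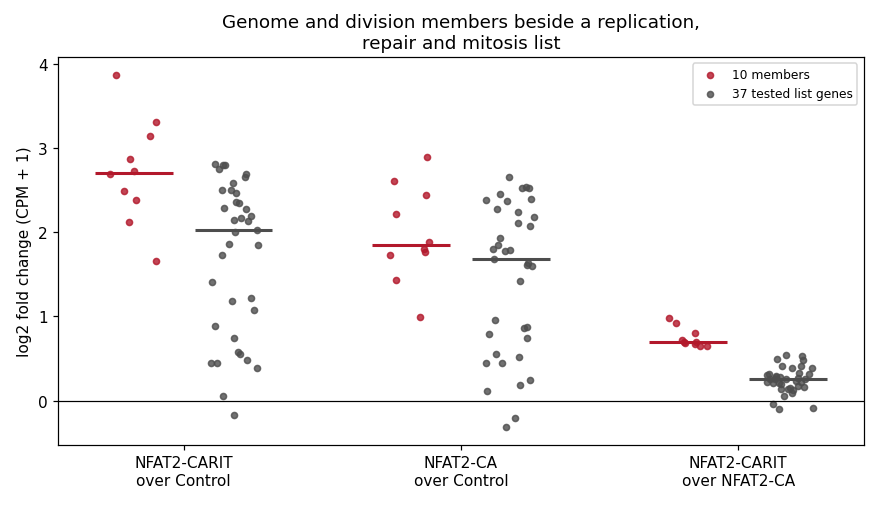
Log2 fold changes (CPM + 1) of the 10 genome and division members and of 37 tested genes of the replication, repair and mitosis list in the 3 comparisons, with 1 point per gene and a line at the median. In NFAT2-CARIT over NFAT2-CA the list genes have a median of 0.26 and the members, chosen for this ratio, 0.70, while in NFAT2-CA over Control the medians are 1.68 and 1.85.

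Interferon and nucleic acid genes were 3 members, with Rsad2 and Trex1 higher and Isg20 lower with NFAT2-CA than in Control. Isg20, an RNA exonuclease, had 21.7, 22.7 and 21.04 CPM with NFAT2-CARIT, 7.81, 10.1 and 10.1 CPM with NFAT2-CA, against 13.2, 11.8 and 12.6 CPM in Control. It had the largest fall of any member with NFAT2-CA, -0.40 ± 0.10 on the log2 scale (adjusted p = 0.0019, limma), which did not pass in the authors' deposited table (-0.43, FDR 0.48). Rsad2, the antiviral enzyme viperin, had 16.9, 15.5 and 17.0 CPM with NFAT2-CARIT, 8.33, 8.002 and 8.94 CPM with NFAT2-CA, against 4.21, 4.03 and 2.62 CPM in Control. It was higher with NFAT2-CA (1.04 ± 0.13, adjusted p = 1.7e-06), in a test it entered through its NFAT2-CARIT libraries only. Trex1, the exonuclease that clears cytosolic DNA, averaged 26.9 ± 1.09 CPM with NFAT2-CARIT, 16.8 ± 2.02 CPM with NFAT2-CA and 13.4 ± 0.718 CPM in Control (FDR 0.56 in the authors' deposited table). As 95.8% of its 50-base stretches also belong to Atrip, the source of these reads is uncertain.

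Isg20 and Rsad2 also belong to a list of interferon-stimulated genes. Of its 14 tested genes, 2 were higher with NFAT2-CA than in Control (Rsad2 and Stat2), beside 31.6% of all tested genes. Lower were 11, beside 40.5% of all tested genes, and 1 was not past. Against Control, 3 were higher with NFAT2-CARIT (both members and Stat2) and 10 lower, beside 32.1% higher and 43.3% lower among all tested genes. Between the vectors, only Isg20 and Rsad2 were higher with NFAT2-CARIT, which the choice of members set, 6 were lower and 6 not past, beside 18.9% lower among all tested genes. The list's median log2 fold changes were -0.89 for NFAT2-CARIT over Control, -0.70 for NFAT2-CA over Control and -0.17 for NFAT2-CARIT over NFAT2-CA. Ifit2, an antiviral RNA-binding gene, averaged 9.95 ± 0.519 CPM with NFAT2-CARIT, 13.0 ± 0.901 CPM with NFAT2-CA and 46.3 ± 0.664 CPM in Control.

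The other 4 members are Serpinb6b, an intracellular protease inhibitor, Fam129b, the pseudogene transcript 2700099C18Rik and the trypsin-like 1810009J06Rik. Serpinb6b had 363, 345 and 343 CPM with NFAT2-CARIT, 215, 203 and 192 CPM with NFAT2-CA, against 182, 178 and 199 CPM in Control, and did not pass with NFAT2-CA (0.12 ± 0.06, adjusted p = 0.084). It passed without Control replicate 3 (0.17, adjusted p = 0.012) or without NFAT2-CA replicate 3 (0.16, adjusted p = 0.038). Fam129b and 2700099C18Rik were higher with NFAT2-CA by 0.93 ± 0.11 and 2.08 ± 0.12, and 11.8% of the 50-base stretches of 2700099C18Rik also occur in other genes. 1810009J06Rik had 34.9, 28.5 and 22.1 CPM with NFAT2-CARIT, 10.4, 7.77 and 8.13 CPM with NFAT2-CA and at most 0.0307 CPM in Control, within 3 reads. Its start lies 34.7 kb from that of Gm2663, which averaged 129 CPM with NFAT2-CARIT, 20.2 CPM with NFAT2-CA and 0.074 CPM in Control, and 81.5% of the 50-base stretches of 1810009J06Rik also occur in Gm2663, so their separate levels are uncertain.

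The other lists of T cell genes hold no member. Of all tested genes 75.4% passed in either direction with NFAT2-CARIT against Control and 34% between the vectors. The shares higher and lower were 32.1% and 43.3% with NFAT2-CARIT against Control and 31.6% and 40.5% with NFAT2-CA against Control. Between the vectors they were 15.1% and 18.9%. Coinhibitory and exhaustion genes were 10 higher and 1 lower of 12 tested with NFAT2-CARIT against Control, 10 and 1 with NFAT2-CA against Control, and 2 and 5 between the vectors (NFAT2-CARIT against NFAT2-CA). Anergy genes were 10 and 7 of 18 with NFAT2-CARIT, 11 and 5 with NFAT2-CA, and 4 and 6 between the vectors. NFAT and calcineurin genes were 4 and 11 of 19 with NFAT2-CARIT, 5 and 9 with NFAT2-CA, and 1 and 6 between the vectors. AP-1 factors were 4 and 4 of 12 with NFAT2-CARIT, 5 and 5 with NFAT2-CA, and 3 and 4 between the vectors, where Fosl2 averaged 679 ± 21.8 CPM with NFAT2-CARIT, 879 ± 11.3 CPM with NFAT2-CA and 191 ± 8.16 CPM in Control. Ion channel genes were 6 and 2 of 12 with NFAT2-CARIT, 4 and 4 with NFAT2-CA, and 6 and 3 between the vectors. G protein coupled receptor genes were 4 and 13 of 20 with NFAT2-CARIT, 6 and 11 with NFAT2-CA, and 6 and 6 between the vectors, and neuronal and adhesion genes were 6 and 3 of 9 with either vector, and 2 and 3 between them. The median log2 fold changes of NFAT2-CARIT over NFAT2-CA in these lists lay between -0.13 for the AP-1 factors and 0.20 for the ion channels, while that of all tested genes was -0.02. Against Control the coinhibitory genes had the highest medians, 2.02 with NFAT2-CARIT and 1.98 with NFAT2-CA, and the G protein coupled receptors the lowest, -0.36 with NFAT2-CARIT and -0.32 with NFAT2-CA.

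Members were spread over all autosomes and the X chromosome, with at most 6 on any (chromosomes 5, 9 and 10). The median span of a member's gene was 35.5 kb, and that of the 8549 genes at the same level 23.2 kb. Of 117 tested genes that are not members and start within 100 kb of one, 32 (27.4%) were higher with NFAT2-CARIT than with NFAT2-CA and 7 lower, against 15.1% higher among all tested genes. Without genes that overlap the member the share was 30 of 110 (27.3%). Besides Gm2663, the largest differences among these 117 were 0.64 for Slc35f6 beside Cenpa, 0.64 for Optn beside Mcm10, 0.57 for Rnf144a beside Rsad2 and 0.56 for Birc2 beside Tmem123. No test of this share was run, and overlapping or unstranded reads were not separated.

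The choice itself rests on thresholds that some genes only just met. For the level, Plekhg3 (10.03 CPM) and Cilp2 (10.06 CPM) were just inside and Igfbp7 (9.80 CPM) and Hspb1 (9.79 CPM) just outside. For the ratio of NFAT2-CARIT to Control, with its limit of 1.5, the nearest inside were Gtf2i (1.601) and Rhoq (1.61), both clear of it. The nearest outside were Lilr4b (1.48) and Xylt1 (1.44). For the ratio of NFAT2-CARIT to NFAT2-CA, Pask (1.602) and Zhx2 (1.604) were just inside and Optn (1.598) and Fen1 (1.594) just outside. Trex1 and Gtf2i, both at 1.604, were as near to this limit as Zhx2. Leaving out each library in turn gave sets of 67 to 76 genes, and 50 of the 67 members were in all 9 of them. At an FDR under 0.05 the authors' deposited table had 36 of the 67 higher with NFAT2-CARIT than with NFAT2-CA, against 1.19% of its genes (2.84% in either direction), which the choice of members favours.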

How the data were processed

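RNA from the 9 libraries had been sequenced as paired ends. The deposited table gives CPM per gene, to which the authors added 0.0001. The authors' deposited comparison table was made with DESeq2 in Partek 10 on mm10, per the submitters' processing notes. Per the file headers it holds p-values with FDR, a ratio of group means and its log2 ratio, and a signal column of totals that equals the summed CPM. How reads were aligned, counted and annotated, and whether strand was used, is not given in the sources used here. Of the listed genes 96.7% match GENCODE M21 spans. Depth was estimated from steps between low values, of which 81.2% to 84.3% were whole reads within 0.1 read, too few to rebuild counts.

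Genes with 10 CPM or more in at least 3 libraries (9233) entered limma 3.58.1 (R 4.3.3), on log2 values with 1 CPM added. The model held a mean for each group across the 9 libraries, used a trended and robust empirical Bayes step, and adjusted by Benjamini-Hochberg. Calls needed an adjusted p below 0.05. The filter value had been set before the unit was known. TMM factors were computed directly by the published formula, and the limma step was tested on simulated data. Other software was Python 3.11.15 with pandas 2.3.3, NumPy 2.4.6, SciPy 1.17.1 and, for plots, matplotlib 3.10.9. Shared sequence is the percentage of 50-base stretches of a gene's transcripts found in other genes. Members and lists were chosen with earlier results of these data known. Named by rule were members high in level or ratio, low in Control, largest in NFAT2-CA against Control, in a list, at a threshold or beside another member, and other members were named after their values were seen. Some genes are not reported here by name. Alternatives were other pseudocounts and filters, TMM and quantile normalization, the 6 libraries compared, a replicate block, the authors' table and leaving out each library.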

Additional observations from a re-analysis of the deposited data

How the results depend on the processing

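Of the 63 member genes tested for NFAT2-CA against Control, 48 kept direction and side of the threshold under every alternative. With a filter of 50 CPM, which tests 23 members, 17 were called, 17 higher and 0 lower. The count lower was 4 with TMM factors (Isg20, Ecm1, Snx10 and Rhoq), 4 with quantile normalization (Isg20, Ecm1, Snx10 and Ggt1), 1 with no filter, 1 with only the 6 libraries compared and 0 in the authors' deposited table. Median log2 fold changes of NFAT2-CA over Control were 0.85 with that filter, 1.14 at a pseudocount of 0.5, 0.78 at 5, 0.88 with quantile normalization and 1.22 in the authors' deposited table. For NFAT2-CARIT over Control they were 2.16 with TMM factors, 1.69 with that filter, 2.16 at a pseudocount of 0.5, 1.55 at 5, 1.90 with quantile normalization and 2.19 in that table, and for NFAT2-CARIT over NFAT2-CA 0.89 with TMM factors, 0.76 at a pseudocount of 5, 0.91 with quantile normalization and 0.90 in that table. Leaving out 1 library gave 37 to 54 called (36 to 51 higher, 1 to 3 lower) and medians of 1.05 to 1.14, 1.81 to 2.12 and 0.81 to 0.85. The lowest counts came without an NFAT2-CARIT library, when 46 members are tested. Quantile normalization turned the sign for Ggt1 (-0.76), Trf (-0.22), Serpine2 (-0.0021) and Fam20a (-0.23), and lost the calls of Cercam and Fgfr1, and the cause was not tested. In the authors' deposited table calls were lost for Trex1, Pard6g, Ecm1, Cercam, Rell1, Fgfr1, Serpine2 and Isg20. The rule gave 21 genes with both ratios at least 2, 25 with a mean of at least 50 CPM, 95 with TMM factors (all 67 among them), 68 with medians (58 shared) and 67 to 76 without 1 library. The promoter share of the NFAT motif exceeded that of all promoters by 0.66 percentage points and that of tested genes by 1.93. Libraries of equal replicate number had correlations of -0.237 to 0.312 (2 of 9 over 0.1, best with its own number in 1 of 9). Those of unequal number had -0.377 to 0.385. These are correlations of deviations from means of 3 libraries, so they cannot exclude a pairing. With the replicate block 52 were called, 50 higher and 2 lower. Depth limits the genes at 0 in Control, where 3 reads stand for 0.0945 to 0.128 CPM, which covers counting error only.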
